A study of Mus musculus with 2 samples.

Results

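The genes described here are 32 genes that are characteristic of leukocytes and, within them, of macrophages and related myeloid cells. They were taken as a fixed list of gene symbols, and every probe set that the platform annotation assigns to 1 of them alone was read in both cultures. This gave 54 of the 45101 probe sets on the array, and 32 of the 18193 genes that have such a probe set. The cultures were mouse retinal pigment epithelium (RPE), the pigmented layer behind the photoreceptors, grown as primary cells for 14 days in medium with 20% serum and then kept without serum overnight. One culture was left untreated, the other received interferon gamma (IFNg) at 100 U/ml for 24 h, and each gave 1 oligonucleotide array. Per the labels, 95% of the cells in both cultures were positive for cytokeratin; they do not say what the other cells were. The sources used here give no strain, number or age of the animals.

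Macrophages and microglia are tissue phagocytes that depend on the growth factor receptor encoded by Csf1r and on the transcription factor PU.1, encoded by Spi1. They display Fc receptors, which bind antibody-coated particles and signal through adaptor chains with ITAM motifs, and they kill ingested microbes with lysozyme, pore-forming proteins and an NADPH oxidase. IFNg is the classical activator of macrophages. The retina and choroid next to RPE hold resident cells of this lineage, so a primary culture can carry some of them.

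Signals are in the arbitrary linear units of the deposited values, where each array has a trimmed mean of 100. Signals under 20.4, the pooled median of both arrays, were set to that value, called the floor below. A fold against an array at the floor is a lower bound and is written "at least". A gene was called higher or lower at 2-fold (1 on the log2 scale) when its brighter array was above the floor, and was read on whichever of its probe sets was brightest on average over both arrays (in log2). With 1 array per group there is no test and no p-value, and higher and lower describe these 2 arrays only. The only spread the design offers is between probe sets of the same gene. Among those above the floor on both arrays, log2 ratios within a gene differed with an SD of 0.44 over 4419 genes. That SD was 0.51 where the brighter signal was at or under the pooled 75th percentile (86.6) and 0.36 above it. In these bulk cultures, fewer cells of a type and less RNA per cell cannot be told apart.

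Most of the 32 genes gave dim signals on both arrays, and few were called past 2-fold. The gene that stood apart from the rest was Mpeg1, the gene for the macrophage pore-forming protein perforin-2, which went from 14.9 in untreated RPE to 888.4 with IFNg. Of the 32 genes, 26 cleared the floor in at least 1 culture, against 70.0% of all genes. By probe set, 37 of 54 were above it on 1 or both arrays, against 57.4% of all probe sets, and 17 were under it on both. Only 8 genes had a signal above the pooled 75th percentile on either array, namely Cyba, Lyz2, Mpeg1, Csf1r, Cd68, Cd14, Fcgr2b and Cd52. A signal above the floor is not a detection call, since no detection calls were used here. No leukocyte array was analysed here either, so the signal that these probe sets give in macrophages is not known from these data.

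Among the 26 genes above the floor, Mpeg1, Cd52, Cybb and Spi1 passed 2-fold on the side of IFNg, and Csf1r, Fcer1g and Laptm5 passed it on the side of the untreated culture. The remaining 19 lay within 2-fold. The 4 higher genes are 15.4% of the 26, against 8.82% of all genes measured in this way, and the 3 lower genes are 11.5%, against 4.48%. Among members whose brighter signal lay between the floor and the pooled 75th percentile, 2 of 18 were higher and 2 lower, where the shares of all genes of that brightness were 5.43% and 5.11%. These counts are a few genes each, and the shares of dim genes past 2-fold show how often a dim signal differs by that much in general. The median log2 ratio of the 26 genes was -0.13, against -0.12 for all 12743 genes above the floor. By direction alone, 15 of the 26 ratios (57.7%) were negative, against 57.5% over all genes, and 13 of the 26 signs come from genes above the floor on 1 array only.

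**Figure D1:**
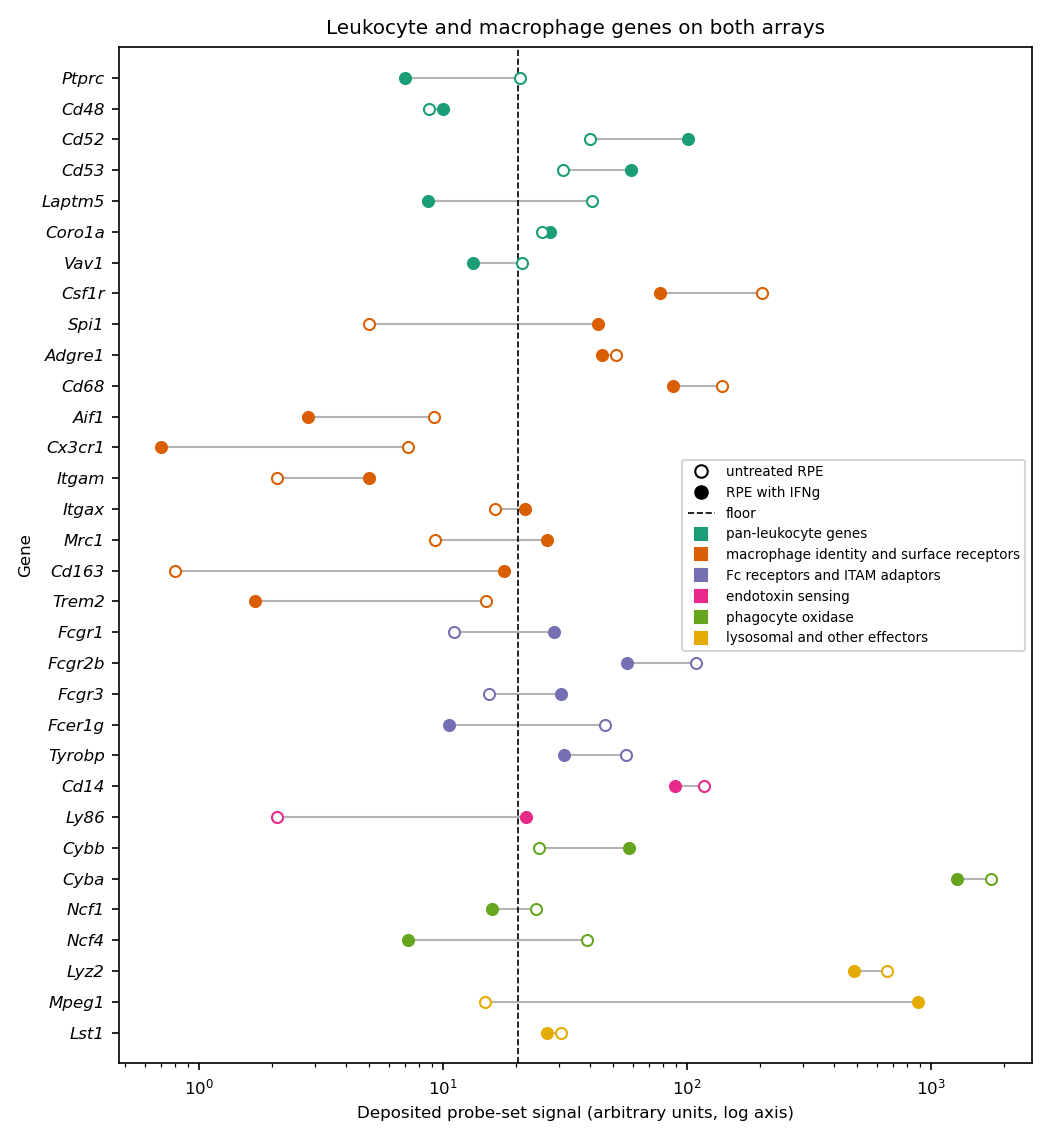
Deposited probe-set signal (arbitrary units, log axis) of the probe set that stands for each of the 32 genes, untreated (open circle) and with IFNg (filled circle), coloured by role, with the floor at 20.4 as a dashed line. Mpeg1 spans 14.9 to 888.4, while Cyba and Lyz2 are far above the floor in both cultures and Aif1, Cx3cr1, Itgam, Cd163, Trem2 and Cd48 are under it in both.

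For the genes past 2-fold and for the Fc receptor gene Fcgr1, a well-known IFNg-inducible gene of phagocytes, the 250 bases before the annotated start are shown for each of them that the RefSeq promoter table of build GRCm38.p6 holds, to let the reader see which interferon-related and myeloid sequence motifs lie there. The table held 24 of the 32 genes, with 27 start sites. Capitals mark matches, on either strand, to the gamma-activated site bound by STAT dimers (GAS, TTCNNNGAA), to the core of the interferon-stimulated response element (ISRE, GAAANNGAA) or to the core bound by PU.1 (GAGGAA). The windows are chr19:12460520-12460769 on the plus strand for Mpeg1, chrX:9469325-9469574 on the minus strand for Cybb, chr3:96293970-96294219 on the minus strand for Fcgr1, chr1:171234350-171234599 on the minus strand for Fcer1g and chr4:130913066-130913315 on the plus strand for Laptm5.
Mpeg1: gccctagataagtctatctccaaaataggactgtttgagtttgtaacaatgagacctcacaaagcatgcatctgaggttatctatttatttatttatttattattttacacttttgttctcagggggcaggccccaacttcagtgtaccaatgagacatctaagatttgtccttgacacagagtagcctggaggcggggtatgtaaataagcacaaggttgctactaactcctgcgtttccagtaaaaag
Cybb: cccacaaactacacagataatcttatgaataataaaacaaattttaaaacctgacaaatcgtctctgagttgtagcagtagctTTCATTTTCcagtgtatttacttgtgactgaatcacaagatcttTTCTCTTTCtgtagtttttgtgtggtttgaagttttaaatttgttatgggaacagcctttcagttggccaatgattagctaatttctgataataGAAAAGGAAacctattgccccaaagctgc
Fcgr1: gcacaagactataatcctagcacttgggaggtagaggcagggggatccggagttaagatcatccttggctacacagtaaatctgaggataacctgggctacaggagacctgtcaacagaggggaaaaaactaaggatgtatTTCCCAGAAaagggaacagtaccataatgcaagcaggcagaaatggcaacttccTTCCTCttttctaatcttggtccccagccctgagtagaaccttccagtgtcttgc
Fcer1g: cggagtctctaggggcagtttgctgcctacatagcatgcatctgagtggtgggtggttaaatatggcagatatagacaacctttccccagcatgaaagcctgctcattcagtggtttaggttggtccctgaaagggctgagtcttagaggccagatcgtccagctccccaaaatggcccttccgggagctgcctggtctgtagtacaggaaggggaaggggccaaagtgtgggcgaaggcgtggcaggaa
Laptm5: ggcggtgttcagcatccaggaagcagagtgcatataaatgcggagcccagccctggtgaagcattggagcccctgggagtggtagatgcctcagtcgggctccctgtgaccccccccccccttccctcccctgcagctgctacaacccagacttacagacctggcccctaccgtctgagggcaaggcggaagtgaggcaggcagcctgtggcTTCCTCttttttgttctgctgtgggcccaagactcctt
Cybb held 3 ISRE-core matches, beginning 167, 123 and 29 bases before the start. Fcgr1 held a GAS match beginning 109 bases and a PU.1-core match beginning 55 bases before the start. In the human FCGR1A gene, a GAS element upstream of the start is known to mediate the response to IFNg. Laptm5 held a PU.1-core match beginning 38 bases before the start, and none of the 3 motifs was in the Mpeg1 or the Fcer1g window, which says only that these letters are not there. None of the matches in the printed windows overlap each other, while in Ncf1 a GAS and an ISRE-core match overlap. Over all 32851 promoter windows of the table, 7.02% held the GAS letters, 7.13% the ISRE core and 23.3% the PU.1 core. Of the 27 member windows, 2 held GAS (Fcgr1, Ncf1), 3 the ISRE core (Aif1, Cybb, Ncf1) and 12 the PU.1 core, from 11 genes. The paired windows of Fcgr3 overlap almost entirely, so they count the same site again. A match is a run of letters and not a measured binding site.

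The pan-leukocyte genes code for proteins found across white blood cells. Ptprc, the gene for the leukocyte common antigen CD45, had signals of 20.8 untreated and 7 with IFNg on 1 probe set and 3.3 and 15.6 on the other, so it was at or close to the floor in both cultures. Cd48, an adhesion and signalling molecule of lymphocytes and myeloid cells, gave 8.8 and 10. Cd52, a small glycoprotein anchored on the leukocyte surface, gave 40.1 and 101.4, a 2.53-fold higher signal with IFNg. Both of its signals were above the floor, and Cd52 has 1 probe set, so its ratio has no second reading. Cd53, a leukocyte tetraspanin, went the same way with 31.2 and 59.1 (log2 ratio 0.92), just short of 2-fold, while its other probe set was under the floor on both arrays.

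Laptm5, a lysosomal membrane protein of haematopoietic cells, had signals of 40.9 and 8.7 on its chosen probe set, at least 2-fold lower with IFNg and barely past the threshold, since 40.9 is set against the floor of 20.4. Its further measured probe sets gave 34.3 and 23.5, and 30.6 and 26.8, which is lower in the same direction but within 2-fold. The last 2 of its 5 probe sets were under the floor in both cultures. Without probe sets whose IDs mark shared sequence, no Laptm5 probe set was above the floor. Coro1a, which codes for an actin-binding coronin of leukocytes, gave 25.5 and 27.6, and a further probe set gave 28.3 and 14.6. Vav1, a guanine nucleotide exchange factor of haematopoietic signalling, gave 21.2 and 13.3. The latter 2 genes therefore stood close to the floor, with no clear difference between the cultures.

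Among genes of macrophage identity, Csf1r was lower and Spi1 higher with IFNg. Csf1r, the receptor for the macrophage growth factors, had signals of 202.8 untreated and 77.5 with IFNg, 2.62-fold lower. Its other probe sets gave 66.6 and 45.2 (log2 ratio -0.56) and 62.7 and 51.5 (-0.28), so all 3 were lower and only the chosen one passed 2-fold. Averaged over its probe sets, the log2 ratio of Csf1r was -0.74, within 2-fold. Spi1 gave 5 untreated and 43.3 with IFNg on its single probe set, at least 2.12-fold higher. With the floor at the pooled 25th percentile (5.80) its log2 ratio was at least 2.90, and with the floor at the 75th percentile both arrays were at the floor, so the size of this difference is set by the floor.

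Further genes used to define macrophages were not called past 2-fold or were under the floor on both arrays. Adgre1, the adhesion receptor that carries the F4/80 epitope, had signals of 51.3 and 44.8. Cd68, a lysosomal glycoprotein of phagocytes, had 139.6 and 87.6, a log2 ratio of -0.67. Both genes were above the floor in each culture. Itgax, the integrin alpha X chain of dendritic cells and some macrophages, gave 16.3 and 21.7, and Mrc1, the mannose receptor, gave 9.3 and 26.8, so each was above the floor only with IFNg. The genes at the floor in both cultures were Itgam, the integrin alpha M chain (2.1 and 5), Cx3cr1, the fractalkine receptor of microglia and monocytes (7.2 and 0.7), Aif1, a calcium-binding protein of microglia (9.2 and 2.8), Trem2, a lipid-sensing receptor of microglia (15 and 1.7), and Cd163, the scavenger receptor for haemoglobin (0.8 and 17.8). No difference can be read for these 5 genes.

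Of the 5 genes for Fc receptors and their adaptors, 1 was past 2-fold and all were above the floor in at least 1 culture. Fcer1g, the common gamma chain that Fc receptors need for signalling, had signals of 46 and 10.6, at least 2.25-fold lower with IFNg. Tyrobp, the ITAM adaptor also called DAP12, had 56.3 and 31.4 (log2 ratio -0.84), above the floor in both cultures and lower without reaching 2-fold. The activating receptors Fcgr1 (11.1 and 28.5) and Fcgr3 (15.4 and 30.5) were under the floor untreated and above it with IFNg, with log2 ratios of at least 0.48 and 0.58. Each of the signs of Fcer1g, Fcgr1 and Fcgr3 is fixed by the culture in which the gene cleared the floor. The receptor bounds are set by the floor. With the floor at the pooled 25th percentile the log2 ratios were 1.36 for Fcgr1 and 0.99 for Fcgr3, from untreated signals dimmer than the main floor. The SD of 0.51 between dim probe sets was taken from probe sets above the floor on both arrays, so it does not measure bounds.

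Fcgr2b, the inhibitory Fc receptor, has 5 probe sets, and they disagreed. Its chosen probe set had signals of 109.2 and 57.1 (log2 ratio -0.94), just inside 2-fold. A second gave 21.9 and 39 (0.83), in the opposite direction, and another gave 28.1 and 25.3 (-0.15). The others were at 21 and 0.5, and at 20.6 and 8.8, barely above the floor untreated. Averaged over the 5 the log2 ratio was -0.06. The low-affinity Fc receptor genes are close paralogs, so which of them such a probe set reads is uncertain.

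Of the endotoxin-sensing genes, Cd14, the co-receptor that hands lipopolysaccharide to TLR4, had signals of 117.3 and 89.8 (log2 ratio -0.39). Ly86, the gene for MD-1, the partner of the TLR4-related protein RP105, gave 2.1 and 22. Cd14 was above the floor in both cultures and within 2-fold. Ly86 cleared the floor only with IFNg and only just.

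The phagocyte oxidase genes code for the membrane and cytosolic subunits of the NADPH oxidase that makes superoxide. Cyba, the membrane subunit that is shared with the NOX enzymes of many non-myeloid cells, had signals of 1756.5 untreated and 1280.5 with IFNg (log2 ratio -0.46). Cybb, the catalytic membrane subunit of phagocytes, gave 24.9 and 58, 2.33-fold higher with IFNg, on its chosen probe set. A second Cybb probe set went the opposite way, with 35 and 14.7 (log2 ratio at most -0.78), and the last was under the floor. Averaged over all 3, the log2 ratio of Cybb was 0.15, so its call rests on the choice of probe set. The cytosolic subunits were lower or near the floor, with 38.9 and 7.2 for Ncf4 (log2 ratio at most -0.93) and 24.1 and 15.9 for Ncf1. Thus 1 of the 4 oxidase genes was past 2-fold and the other 3 had negative ratios that were not called. Those of Ncf1 and Ncf4 are bounds.

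Mpeg1, Lyz2 and Lst1 complete the list. Mpeg1 had the highest ratio of the 32, at least 43.5-fold with IFNg (log2 ratio at least 5.44). With the floor at the pooled 75th percentile the log2 ratio was still at least 3.36. It has 1 probe set that names it alone, so there is no second reading of the gene here. Lyz2, the lysozyme gene of mouse myeloid cells, was within 2-fold, with signals of 660.8 and 486.5 (log2 ratio -0.44). Lst1, a small leukocyte transmembrane protein encoded in the MHC region, gave 30.6 and 26.7. The Lyz2 ratio is near in size to the SD between probe sets of a gene (0.44 over all, 0.36 at its brightness). Which cells gave the Mpeg1 and Lyz2 signals was not tested.

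**Figure D2:**
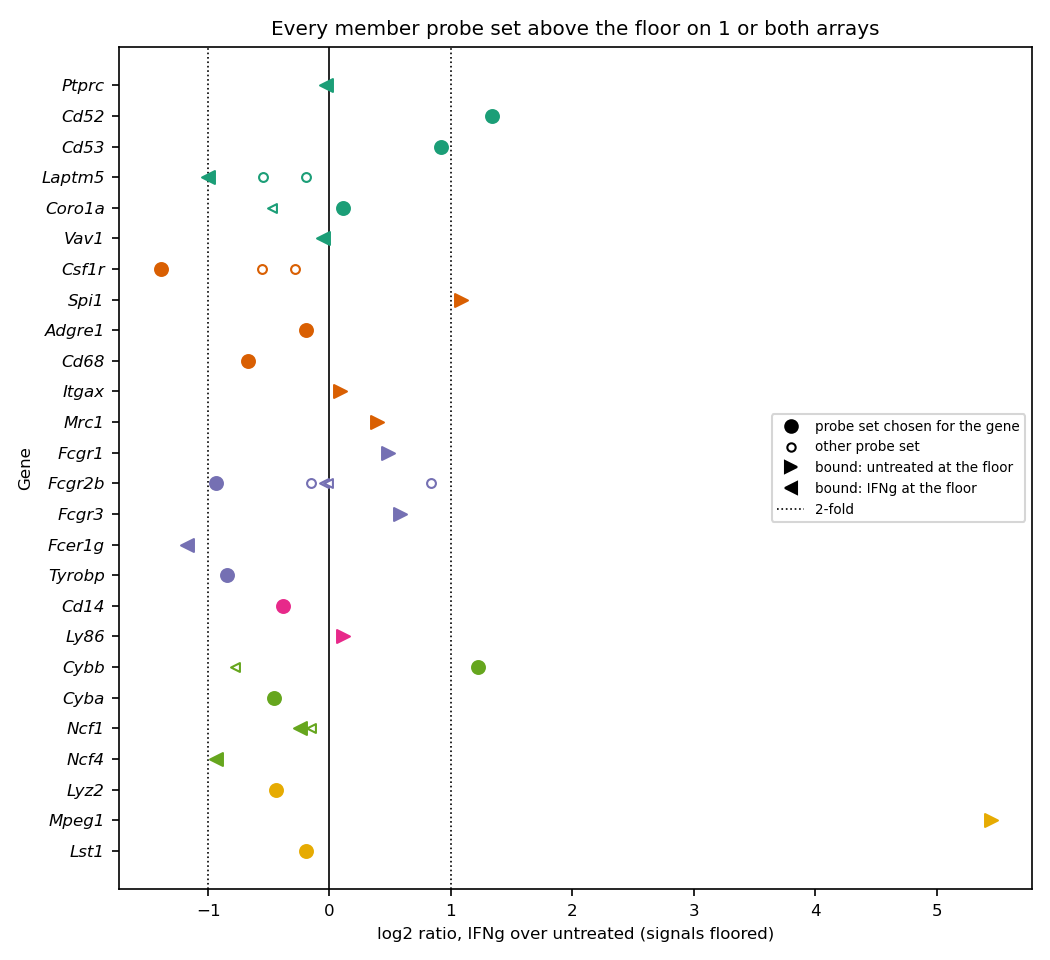
Log2 ratio of IFNg over untreated signal for each member probe set above the floor on 1 or both arrays, with large filled markers for the probe set that stands for the gene, small open ones for further probe sets, triangles for bounds and dotted lines at 2-fold. Cybb (1.22 and -0.78) and Fcgr2b (0.83 to -0.94) have probe sets on both sides of 0, and Mpeg1 lies at 5.44.

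Taking every probe set, 6 members had several above the floor, and in 3 of them (Coro1a, Fcgr2b and Cybb) the ratios had both signs. In the other 3 (Laptm5, Csf1r and Ncf1) all measured probe sets were lower with IFNg. At the probe-set level, 4 of the 37 above the floor were at least 2-fold higher and 3 at least 2-fold lower. Each was the probe set that stands for its gene, so these repeat the gene calls. The share of all probe sets past 2-fold was not computed. Of the 32 members, 20 have a single probe set, so no such comparison exists for them.

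The summed signal of the 32 genes was 3555.2 untreated and 3589.9 with IFNg, nearly the same in both cultures. Without Mpeg1 it was 3540.3 and 2701.5, 23.7% below the untreated sum. Cyba and Lyz2 hold most of that sum. Leaving them out too, the sums were 1123 and 934.5 (-16.8%), and most of that difference is the chosen Csf1r probe set, since without Csf1r they were 920.2 and 857 (-6.87%). Many terms of these sums are under the floor. Summed over all genes, the signal changed by -2.22%.

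**Figure D3:**
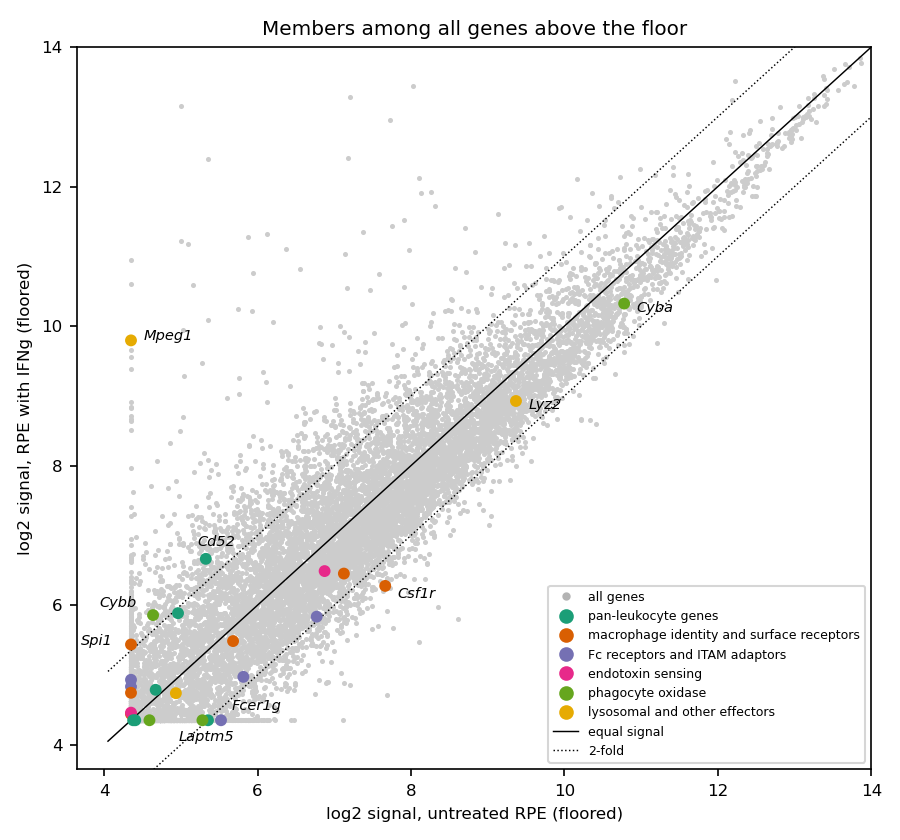
Log2 signal with IFNg against log2 signal untreated, after the floor, for the 12743 genes above the floor (grey) and the 26 members among them (coloured by role), with lines of equal signal and of 2-fold difference. Most members lie in the dim corner near the floor, Mpeg1 stands far above the upper 2-fold line, and Csf1r, Fcer1g and Laptm5 lie past the lower one.

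Further genes of the same lineages were read from lists drawn up with earlier results of these data known, as the members were. Of 29 further macrophage and microglia genes, 16 (55.2%) were above the floor, against 70.0% of all genes. Of the 16, 2 (12.5%) were at least 2-fold higher, against 8.82% of all genes above the floor. None was at least 2-fold lower, against 4.48%, and the median log2 ratio was 0.14. The 2 were Ms4a7, a macrophage membrane protein (6.9 and 57.4, at least 2.81-fold), and Fcgr4, another activating Fc receptor (13.3 and 44.1, at least 2.16-fold). A second Ms4a7 probe set gave 0.7 and 3.2, under the floor on both arrays. Of the 16 ratios, 9 were positive and 7 negative, and 8 of these signs come from genes above the floor on 1 array only. The complement genes C1qa (26.2 and 50.8), C1qb (44.5 and 66.4) and C1qc (25 and 35.4), which tissue macrophages are known to make, lay within 2-fold on the positive side. On the negative side and also within 2-fold were the scavenger receptor gene Msr1 (29.1 and 22.2) and the cytokine receptor gene Csf2ra (70.7 and 53.1). Cd84 (27.4 and 13.4) was negative too, with a bound that did not reach 2-fold. The microglial genes P2ry12, Gpr34 and Siglech were at the floor in both cultures, with no signal over 2.7 on the probe sets that stand for them. Tmem119, used as a microglial marker in the brain and also known from osteoblasts, had 627 and 430.8.

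Of 23 further haematopoietic cytoplasmic genes, 16 (69.6%) were above the floor and 1 of these (6.25%), Irf8, passed 2-fold. Irf8, a transcription factor that pairs with PU.1 in myeloid cells and is itself induced by IFNg, gave 32.5 and 987.7, 30.4-fold higher, and a second probe set gave 28 and 632.1. Itgb2, the beta chain that pairs with the integrin chains of Itgam and Itgax, had 60.9 and 31.1 (log2 ratio -0.97). The median of this list was -0.28. Markers of other blood cells were read in the same way. Above the floor were 4 of 15 T, B and NK cell markers (26.7%) and 6 of 15 neutrophil and mast cell markers (40%). The same held for 5 of 9 dendritic cell markers (55.6%) and 2 of 6 erythroid and platelet markers (33.3%), where the share of all genes was 70.0%. None of these markers was called, where 8.82% of all genes above the floor were higher and 4.48% lower. Markers at the floor on both arrays could not be called. Several of the others are bounds, so this absence is limited by the floor. Fscn1, an actin-bundling protein listed with dendritic cells and also made by many adherent cells, had 5172.1 and 4063.2. The T-cell receptor genes Cd3d, Cd3e and Cd3g and the B-cell genes Cd79a and Ms4a1 were at the floor on both arrays, while the kinase gene Zap70 (104 and 89.7) and Cd8a (34.8 and 22.6) were above it on both.

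For the labelled cell type, 16 RPE and pigment cell markers were read, and 12 of them (75%) were above the floor, against 70.0% of all genes. Otx2, a transcription factor of RPE, gave 410.9 and 388.5, Tyr, the melanin-forming tyrosinase, 986.1 and 605.7, and the cytokeratin gene Krt18 1390.4 and 2445.9. With IFNg, 4 of the 12 (33.3%) stood lower by 2-fold or more, against 4.48% of all genes above the floor, and none stood higher by as much. The 4 were the retinal-binding protein gene Rlbp1 (73.2 and 35.1), the melanogenic Tyrp1 (53.1 and 21.7), the thyroxine and retinol carrier gene Ttr (89.4 and 29.4) and the melanosomal transporter gene Slc45a2 (67.3 and 6.9). Other Tyrp1 probe sets gave 55.9 and 10, past 2-fold, and 17.7 and 25.7, in the opposite direction. Other Ttr probe sets gave 46.4 and 18.5, past 2-fold, and 33.3 and 17.3, and 29.9 and 17.9, with bounds that did not reach it. The other Slc45a2 probe set was under the floor on both arrays. The visual cycle isomerase gene Rpe65, Best1, Rgr and Dct were at the floor in both cultures. All 10 fibroblast markers were above the floor and within 2-fold. Their signals summed to 69164.8 untreated and 65778.1 with IFNg, where the 16 RPE and pigment cell markers summed to 3733 and 4189.4. Sums over unlike probe sets do not give shares of cell types, and which cells gave the fibroblast marker signals was not tested. Krt18 is the largest term of the RPE sum in both cultures, while 8 of the 12 RPE ratios were negative. In the list of IFNg response genes, all 11 were at least 2-fold higher with IFNg, against 8.82% of all genes above the floor. Their median log2 ratio was 4.36. That list too was drawn up with earlier results of these data known, so its count is a description and not a test. The highest were the chemokine gene Cxcl9 (32 and 9126.6), the class II chain H2-Aa (2.2 and 1551.4), the invariant chain Cd74 (34 and 2322) and Gbp2 (260.8 and 11151). The part that resident myeloid cells have in the signals of the 32 genes was not tested, since both arrays are of whole cultures.

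**Figure D4:**
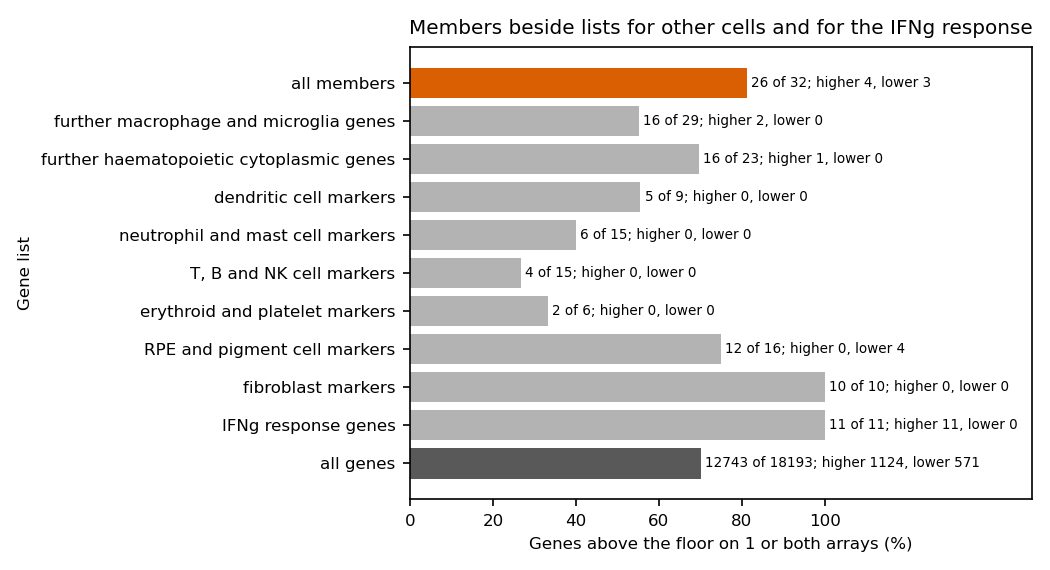
Share of matched genes that cleared the floor in at least 1 culture (bars, percent) for the 32 members, for further lists and for all genes, with the counts above the floor and past 2-fold beside each bar. The members stand at 81.3% with 4 higher and 3 lower, and the T, B and NK cell markers at 26.7% with none called past 2-fold. The IFNg response genes stand at 100% with all 11 higher. Over all genes above the floor, 8.82% were higher and 4.48% lower.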

How the data were processed

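Total RNA of 2 primary cultures was amplified, labelled with biotin and hybridised, 1 array per culture, per the labels' protocols. The deposited table holds linear signal intensity per probe set, which the authors had scaled to a trimmed mean near 100, as seen in the values. How probes were summarised and background was corrected is not given in the sources used here. Groups follow the sample titles. The 64 control probe sets were left out, each array was scaled to a common mean after trimming 2% at each end, dim signals were raised to the pooled median, and log2 was taken. Names came from the platform annotation, and all 32 members carry an Entrez identifier found in the RefSeq gene table of GRCm38.p6. Of 149 genes in 9 further lists, 134 matched. All members are named, and from each further list up to 4 genes past 2-fold with the largest log2 ratios, plus defining genes at the floor, while the C1q genes, Msr1, Csf2ra, Cd84, Tmem119, Itgb2, Fscn1, Zap70, Cd8a, Otx2, Tyr and Krt18 were chosen after their values were seen. Members and lists were chosen with earlier results of these data known. The procedure was tested on simulated data, with shifts placed only on genes above the floor on both deposited arrays. Genes with 1 array at the floor were not among those shifted. Alternatives changed the scaling, the floor, the probe-set rule and the fold threshold. The number of arrays limits the precision. Python 3.11.15 was used with pandas 2.3.3, numpy 2.4.6, statsmodels 0.14.6 and scipy 1.17.1, and figures were drawn in matplotlib 3.10.9.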

Additional observations from a re-analysis of the deposited data

How the results depend on the processing

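The 4 higher genes (Cd52, Spi1, Cybb, Mpeg1) were the same under all 4 other scalings, which were unscaled values, a common 75th percentile, quantile normalization and a loess curve. The lower genes gained Fcgr2b under the common 75th percentile and quantile normalization, to 4. A pseudocount of 16 replaced Cybb with Ly86 among the 4 higher and Laptm5 with Ncf4 among the 3 lower, so it kept 5 of the 7 calls. When the floor was the 25th percentile of both arrays, 31 members were above it, 8 were higher and 5 lower. When it was the 75th, 8 members were above it, 1 was higher (Mpeg1) and 1 lower (Csf1r). Averaging all probe sets left 1 lower (Fcer1g). At 1.5-fold 7 were lower, and at 3-fold 1 was higher and 0 lower. Over all genes, the 25th percentile floor gave 2258 higher (13.6% of 16565) and 2059 lower (12.4%). The 75th percentile floor gave 574 (7.39% of 7765) and 163 (2.1%). The main setting gave 1124 (8.82% of 12743) and 571 (4.48%), and averaging gave 591 (4.64%) and 357 (2.8%). At 1.5-fold the counts were 2287 (17.9%) and 2378 (18.7%), and at 3-fold 336 (2.64%) and 59 (0.46%). Where 4 members were lower, 5.88% of all genes were lower under the common 75th percentile and 5.62% under quantile normalization. With the pseudocount 1029 genes were higher and 634 lower, of 12678. The members' median log2 ratio ran from -0.41 (75th percentile floor) to -0.03 (shared-sequence probe sets left out, 28 members remaining). Of 231 values of single members under the alternatives, 33 moved by over the SD between probe sets, all under another floor, a pseudocount of 16 or another probe-set rule. No member past 2-fold turned its direction, but some lost it. With the floor at the 75th percentile the log2 ratios of Laptm5, Spi1, Cybb and Fcer1g were 0, as was that of Laptm5 without shared-sequence probe sets. No paired analysis was possible because each group has 1 array.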
